A study of Mus musculus with 64 samples.

Results

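The expression of 6 genes that mark mesothelium was followed in omental adipose tissue of wild-type and Myc-knockout mice at 2 ages. The 6 are Msln, Upk3b, Upk1b, Wt1, Krt19 and Lrrn4. The genes were chosen by name as markers, and each was found in the deposited table by its mouse gene ID (56047, 100647, 22268, 22431, 16669 and 320974, in that order). The table holds 36332 distinct gene IDs, and all 6 genes were among the 14286 that passed the filter on low values in adipose tissue. Wild-type (WT) mice were C57/B6. Knockout (KO) mice came from crossing a B6.129 line with cre/ERT2 at Gt(ROSA)26Sor (allele tm1(cre/ERT2)Tyj) to the line B6.129-B6.129S6-Myctm2Fwa/Mmjax. The Cre recombinase, fused to an oestrogen receptor and driven body-wide, acts on Myc once tamoxifen is given, so the deletion is not limited to adipose or mesothelial cells. Both genotypes are labelled as treated alike, with 5 daily intraperitoneal doses of tamoxifen at 75 mg/kg in corn oil at weaning. There were 6 WT and 6 KO adipose libraries at 5 months and 5 WT and 5 KO ones at 20 months. Liver and skeletal muscle of the same design served for reference. Libraries are named by the codes of the labels, which open with W for WT or K for KO. Codes of aged mice carry the number 18 although the age label reads 20 months, and the label is followed here.

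Mesothelium is the single layer of flat cells that covers the omentum and the other organs of the body cavities, and it sheds a lubricating film into the cavity. Its cells arise from mesoderm yet carry keratins, and under injury or transforming growth factor beta they can lose these and take on a mesenchymal form. In the omentum they cover both the fat lobules and the milky spots, small clusters of lymphocytes and macrophages. The 6 genes stand for different sides of this cell. Msln encodes mesothelin, a membrane-anchored surface protein that binds the mucin Muc16. Upk3b and Upk1b encode uroplakins, membrane proteins best known from the bladder lining that are also made by mesothelium. Lrrn4 encodes a leucine-rich repeat membrane protein. Krt19 encodes a keratin of simple epithelia. Wt1 encodes a zinc-finger transcription factor of the mesothelial lineage and of the gonads and kidney.

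The genes lie apart in the mouse genome (GRCm38.p6, spans from RefSeq, exon lengths from GENCODE M21). Msln lies at chr17:25748613-25754378 on the minus strand, with 16 exons that add up to 2166 bases. Upk3b lies at chr5:136038496-136044993 on the plus strand, with 6 exons and 3530 bases. Upk1b lies at chr16:38773182-38800203 on the minus strand, with 8 exons and 1894 bases. Wt1 lies at chr2:105126529-105173614 on the plus strand, with 10 exons and 3090 bases. Krt19 lies at chr11:100140810-100145926 on the minus strand, with 6 exons and 1576 bases. Lrrn4 lies at chr2:132866686-132894010 on the minus strand, with 5 exons and 3715 bases. The end of the Lrrn4 span overlaps that of Crls1 on the other strand, and the use of strand in counting is not given in the sources used here, so Lrrn4 reads are uncertain in that stretch.

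The RefSeq promoter table held an entry for 2 of the 6 genes, Upk3b and Lrrn4, and the upstream sequences of these 2 are shown. Levels of these genes varied together from library to library (r = 0.85, group means taken out, over 22 adipose libraries). The median r over all 15 pairs of the 6 genes was 0.84. Each sequence is printed 5′ to 3′ on the strand of its gene, and the 30 bases next to the start are left out. The Upk3b stretch is chr5:136038246-136038465 (plus strand, 220 bases, 60% G or C), and the Lrrn4 stretch is chr2:132880893-132881112 (minus strand, 220 bases, 59.5% G or C), ahead of a start inside the RefSeq span. Capitals mark a match to GGAATG, the core bound by TEAD factors, on either strand.
Upk3b: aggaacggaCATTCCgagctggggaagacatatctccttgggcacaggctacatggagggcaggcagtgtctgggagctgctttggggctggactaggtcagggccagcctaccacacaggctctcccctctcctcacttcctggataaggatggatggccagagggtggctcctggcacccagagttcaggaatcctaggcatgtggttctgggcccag
Lrrn4: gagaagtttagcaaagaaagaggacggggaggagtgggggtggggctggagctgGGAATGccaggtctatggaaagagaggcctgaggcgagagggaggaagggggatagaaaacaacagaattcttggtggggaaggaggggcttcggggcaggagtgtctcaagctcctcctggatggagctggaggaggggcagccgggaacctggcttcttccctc
The match begins 241 bases before the start in Upk3b and 196 bases before it in Lrrn4. Over the 250 bases ahead of 32851 annotated starts, 12.6% of windows held GGAATG on at least 1 strand. The other motifs searched on both strands had no match in the 250 bases ahead of either gene: CACGTG, the E-box bound by Myc and Max (in 6.02% of windows), GGGCGG of SP and KLF factors (32.7%), GCGTGGG, a core bound by EGR factors and Wt1 (4.3%), TATAAA (12.4%) and TGANTCA of AP-1 (6.75%). GGGCGG and GCGTGGG matches can share bases. A match is a description of letters only, and the absence of one says nothing of the factor.

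Depth was 15.9 to 28.5 M reads on genes in the adipose libraries, and the values are the deposited CPM, a read signal scaled per library, in which 1 read was worth 0.0204 to 0.0433 CPM. The deleted gene followed its label at 5 months: Myc was at 17.7 ± 5.11 CPM in WT and 5.76 ± 2.91 in KO (mean ± SD, n = 6 each; limma log2 fold change -1.52, adjusted p = 0.017). At 20 months Myc was at 12 ± 3.03 and 7.36 ± 1.76 CPM (n = 5 each; adjusted p = 1). Every KO adipose library still had reads of Myc, and its lower KO level was not called at 20 months. All 10 genes of a list of adipocyte markers passed the filter, and their summed level was 10726 to 33025 CPM. At 5 months 4 libraries, 2 of each genotype, carried Xist and no Y-linked transcripts (W5F5041, W5F5042, K5F5116 and K5F5118). A list of 15 epididymis genes summed to over 10 CPM in 4 other libraries, all at 5 months: 928 CPM in W5F5299, 965 in K5F5218, 4090 in K5F5248 and 6365 in K5F4284, against 0.958 CPM or less in the remaining 18. Of the 6 young KO libraries, K5F4285 was the only one with neither feature. The labels call all 4 libraries with epididymis genes omental, and how these transcripts came into them was not tested. The labels do not say outright that libraries of a group are separate mice, so p-values measure only the spread between these libraries, which may be technical.

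All 6 genes were far higher in omental fat than in liver or muscle. Msln, the surface mesothelin, ranged from 17.4 to 254 CPM with a median of 61.8 over 22 adipose libraries. The same gene ranged from 0.591 to 5.92 CPM in 22 liver libraries and from 0.0508 to 1.71 CPM in 20 muscle libraries. Upk3b, the more abundant uroplakin, ranged from 21.6 to 341 CPM in fat and from 0.444 to 6.13 CPM in liver. It had no read in 15 of 20 muscle libraries and at most 12 reads in the others. Fat and the other tissues did not overlap for either gene.

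The remaining 4 genes had the same order of tissues. Upk1b reached 1.62 CPM in liver and had no read in 11 of 20 muscle libraries, against 7 CPM or more in every adipose library. Wt1 reached 4.9 CPM in liver, where it had no read in 1 library, and had none in 15 of 20 muscle libraries, against 8.48 CPM or more in fat. Lrrn4 reached 3.29 CPM in liver and was without a read in 15 of 20 muscle libraries, while fat held 11.2 CPM or more. In Krt19 the gap was narrow: the lowest adipose library had 3.9 CPM (W18F25), under the highest liver library at 4.41 CPM. Its muscle libraries ranged from 0.29 to 2.06 CPM, so Krt19 was the 1 member with reads in every muscle library apart from Msln. Where a muscle library had no read, 3 reads in that library would be the limit a count of 0 allows.

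**Figure D1:**
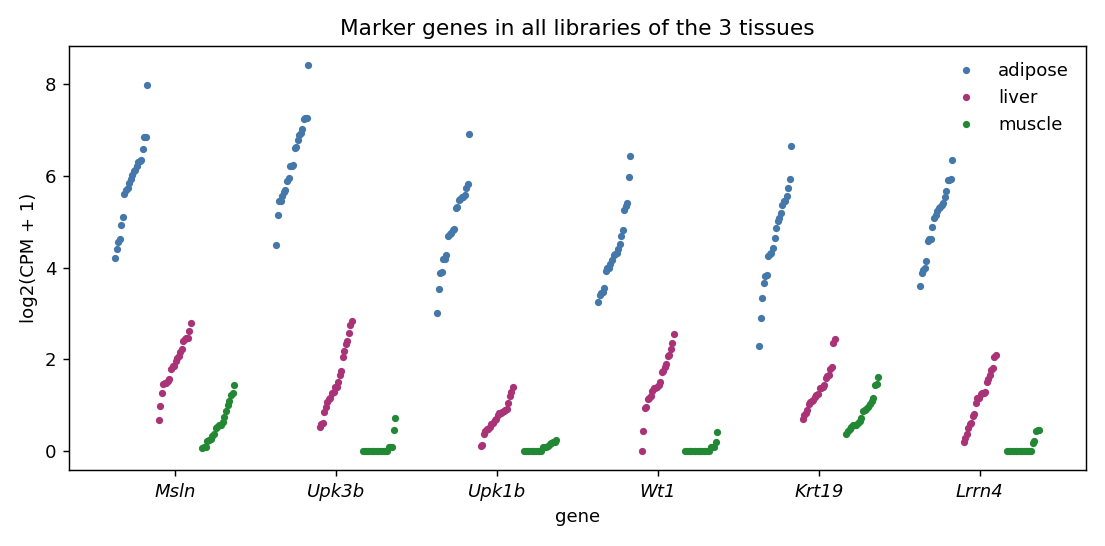
Log2(CPM + 1) on the vertical axis for each of the 6 genes along the horizontal axis, in every library of the 3 tissues: 22 of adipose tissue, 22 of liver and 20 of muscle, 1 point each, ordered by value. Adipose values lie above those of liver and muscle except for Krt19, whose lowest adipose library (3.9 CPM) lies under its highest liver library (4.41 CPM).

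In WT mice at 5 months, the group with a test across tissues, 6 of 6 genes were higher in adipose tissue than in liver (limma, adjusted p of 2.7e-08 or less). Over all 14087 genes tested in that fit, 35.7% were called higher in adipose tissue. Upk3b, Upk1b, Wt1 and Lrrn4 passed the filter of that fit only through the adipose libraries. The 6 genes were chosen as mesothelial markers, so the calls describe their place by tissue and are no test of that choice. The log2 differences ran from 3.59 for Krt19 (SE 0.312) and 3.78 for Wt1 (SE 0.376) to 5.79 for Upk3b (SE 0.343), and their median was 4.63 against 0.03 over all genes. Against muscle, 6 of 6 were higher as well (38.8% of all genes were), with differences from 4.66 for Krt19 to 6.74 for Upk3b and a median of 5.21 against 0.15. For all 6 genes the WT groups of 6 libraries did not overlap, which held for 25.3% of genes higher than in liver and 27% higher than in muscle. Dividing by library totals instead moved the median of all genes from 0.03 to 1.02 (liver) and from 0.15 to 0.90 (muscle). In that setting 6 of 6 genes were still called higher, but so were 10083 of 14168 genes against liver and 9113 against muscle. The muscle library with the most reads of Upk3b, Wt1 and Lrrn4 was K18S64, with 12, 6 and 7 reads. W5S5299, a muscle library of WT mice at 5 months, had 5, 2 and 5 reads of them and 128 CPM of the epididymis list.

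Per kilobase of exon, Msln had the highest level of the 6 genes in 15 of 22 adipose libraries. Upk3b led in 5 libraries and Krt19 in 2. In WT mice at 5 months the median was 44.6 CPM per kilobase for Msln, 34.9 for Upk3b, 24.9 for Krt19, 22.1 for Upk1b, 10.2 for Lrrn4 and 6.82 for Wt1. The ranges of neighbours in this order overlapped, since Msln spanned 13.5 to 117 and Upk3b 12.1 to 96.7 CPM per kilobase. Wt1, the transcription factor, was lowest in 16 of 22 libraries and Lrrn4 in 5. In old WT fat the median of Krt19 was 5.75 CPM per kilobase, between Wt1 (4.85) and Lrrn4 (9.29), while Msln (24.3) and Upk3b (21) kept their order.

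Within a group the genes varied over a wide range and did so together. In WT mice at 5 months Msln had its lowest library at 29.3, its median at 96.6 and its highest at 254 CPM, an 8.65-fold span. Wt1 had the widest span of that group, 10.1-fold, and Lrrn4 the narrowest, 4.06-fold. In KO mice at 20 months the span of Msln was 2.19-fold, the narrowest of its 4 groups. Library W5F5042 was highest of the young WT group for 5 of 6 genes, W18F21 was highest of the old WT group for 6 of 6, and K18F28 was highest of the old KO group for 6 of 6. W18F25 was lowest of the old WT group for 5 of 6 genes. In young KO fat the top place was shared, with K5F5116 highest for 4 genes and K5F5118 for 2.

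**Figure D2:**
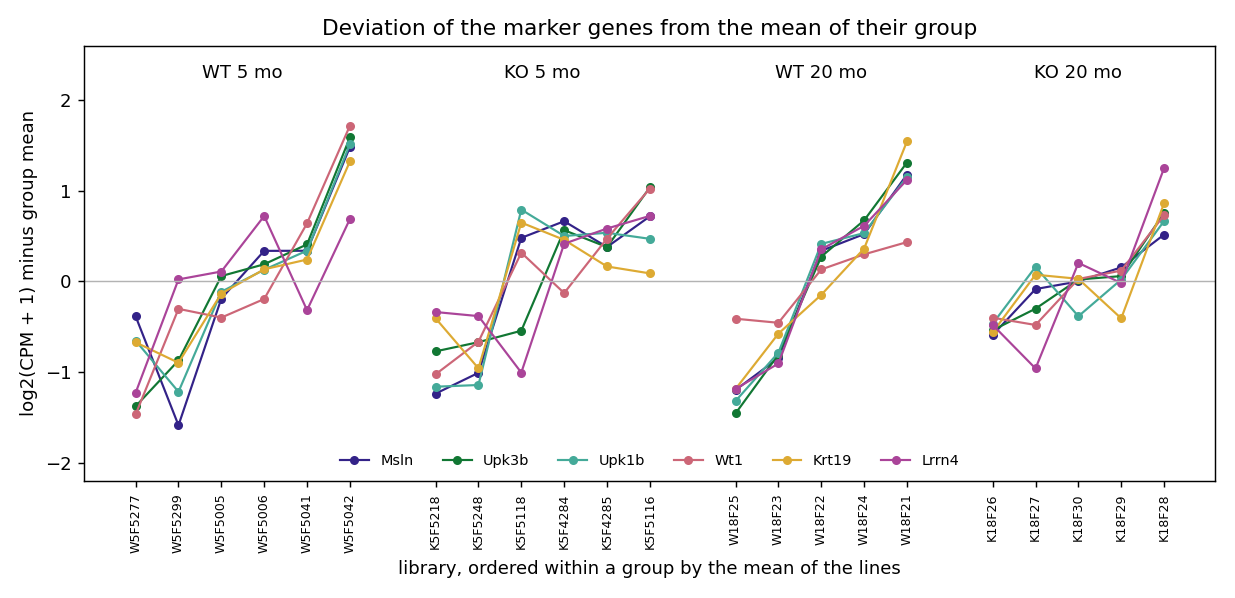
Deviation of log2(CPM + 1) from the mean of its group (vertical axis) for the 6 genes, 1 line each, in the 22 adipose libraries (horizontal axis), ordered within a group by the mean of the lines. The lines run together, with W18F21 highest of old WT and K18F28 highest of old KO for 6 of 6 genes, and Lrrn4 leaves the others in K5F5118.

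Over the 22 adipose libraries, with group means taken out, Pearson's r between pairs of the 6 genes ran from 0.60 (Upk1b and Lrrn4) to 0.97 (Msln and Upk1b), with a median of 0.84 over 15 pairs. Without W5F5042 the range was 0.58 to 0.96. Set against the mean of the other 5 genes, Upk3b had the highest r at 0.95 and Lrrn4 the lowest at 0.72, with Upk1b at 0.92, Msln at 0.91, Krt19 at 0.88 and Wt1 at 0.81. These values describe libraries that share scaling and tissue composition. Fewer mesothelial cells in a piece of fat and less RNA of these genes per cell cannot be told apart in bulk tissue.

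The ranges of the ratios among the uroplakins and mesothelin were narrower in old than in young libraries of the same genotype. The ratio of Upk1b to Upk3b CPM was 0.284 to 0.346 in old WT and 0.252 to 0.468 in old KO libraries. The ratio of Msln to Upk3b CPM was 0.61 to 0.807 in old WT and 0.6 to 0.824 in old KO libraries. Young libraries spread further, from 0.48 to 1.61 in WT and from 0.468 to 1.36 in KO for Msln to Upk3b. For Upk1b to Upk3b they ran from 0.282 to 0.608 in WT and from 0.291 to 1.11 in KO fat. The upper end of each young range was a single library, W5F5277 in WT and K5F5118 in KO fat. The wider young ranges lean on these libraries, so a general difference in spread with age is not shown. In K5F5118 Upk1b exceeded Upk3b (ratio 1.11) and so did Krt19 (ratio 1.19), while Lrrn4 was the lowest of its group at 14.5 CPM.

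By the same measure, the 10 genes most like the mean of the 6 among 14280 other tested genes were Gpm6a (r = 0.96), Bnc1 (0.96), Myrf (0.95), Muc16 (0.93), Pkhd1l1 (0.93), Crb2 (0.93), Tmem151a (0.92), Ptgis (0.91), Crym (0.91) and Aldh1a2 (0.90). Over all those genes the 5th, 50th and 95th percentiles of r were -0.48, 0.00 and 0.55. Of the 10, Gpm6a, Bnc1, Muc16, Crb2 and Aldh1a2 belong to a wider list of 20 mesothelial genes. Muc16 encodes the mucin that mesothelin binds, Bnc1 a zinc-finger factor and Aldh1a2 an enzyme that makes retinoic acid. Gpm6a was at 22.2 to 196 CPM in young WT and 16.3 to 77.7 CPM in old WT fat. Without W5F5042 the r of the 10 genes lay between 0.87 and 0.95.

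The wider list was present in fat but not all of it moved with the 6. Calb2, the gene of calretinin, a protein used to stain human mesothelium, had no read in any old adipose library or in any young WT one and reached 0.0637 CPM in young KO fat. Nkain4 ranked 13, Rspo1 20 and Pdpn 32 by r, while Bcam ranked 980, Lrrn4cl 1082, Tbx18 1681 and Tcf21 2029. Of the 19 listed genes tested, none was called in any of the 4 comparisons of genotype or age. Their median log2 difference was -0.07 for KO against WT at 5 months, 0.21 at 20 months, -0.52 with age in WT (18 of 19 negative) and -0.08 with age in KO mice. The medians over all 14286 genes in those comparisons were -0.04, 0.01, 0.01 and 0.06.

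KO and WT fat were compared first at 5 months. The genotypes also differed in strain background and in the Cre allele, which cannot be told apart from loss of Myc here. None of the 6 genes was called, where 0.105% of all 14286 genes were (15 genes, limma; edgeR called 9 and DESeq2 304, and no tool called a member). None of the 6 had an unadjusted p under 0.05 in limma. Msln, the mesothelin gene, had its lowest, median and highest library at 29.3, 96.6 and 254 CPM in WT and at 20.1, 66.2 and 81 CPM in KO mice. The groups overlapped, and 3 of the 6 WT libraries lay above every KO library. The log2 difference was -0.87 (SE 0.464, 95% interval -1.84 to 0.09, adjusted p = 0.462). The mean was 110 ± 77.3 CPM in WT and 55.9 ± 27 in KO libraries (SD, n = 6 each).

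Both uroplakin genes overlapped widely between young WT and KO fat. Upk3b was at 42.8, 123 and 341 CPM (lowest, median, highest) in WT and at 43, 73.6 and 153 CPM in KO libraries. The log2 difference of Upk3b was -0.60 (95% interval -1.59 to 0.39, adjusted p = 0.648). Upk1b was at 17.3, 41.9 and 120 CPM in WT and at 13.7, 45.1 and 56 CPM in KO libraries, so its medians and means ran in opposite order. The difference of Upk1b was -0.37 on the log2 scale (interval -1.33 to 0.59). Lrrn4, the leucine-rich repeat gene, was at 14.9, 37.9 and 60.3 CPM in WT and 14.5, 32 and 50.3 CPM in KO libraries, a log2 difference of -0.26 (interval -1.15 to 0.64).

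Krt19 and Wt1 were not called between the young groups either. Krt19, the simple keratin, was at 20.5, 39.3 and 99.5 CPM in WT and at 19, 41.5 and 60 CPM in KO libraries. Its log2 difference of -0.04 (interval -0.89 to 0.80) turned to 0.16 without the libraries carrying Xist, 0.08 without those carrying epididymis genes and 0.04 when rescaled to library totals. Wt1 was at 8.48, 21.1 and 85.2 CPM in WT and at 14.1, 32.3 and 61.7 CPM in KO libraries, with a log2 difference of 0.23 (interval -0.61 to 1.08). The Wt1 difference was 0.78 without the libraries carrying epididymis genes, 0.49 without those carrying Xist, and -0.06 without W5F5277, the lowest WT library, and was not called in any of these.

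The 4 libraries with Xist and the 4 with epididymis genes touched the young groups of these genes. For Wt1 the WT pair with Xist had 39.9 and 85.2 CPM, against 8.48 to 21.9 CPM in the 4 WT libraries without. In KO mice the pair with Xist had 37.4 and 61.7 CPM of Wt1, against 14.1 to 41.8 CPM. Msln had 114 and 254 CPM in the WT pair with Xist and 29.3 to 114 CPM in the others. The KO libraries with epididymis genes had 20.1, 23.8 and 78 CPM of Msln and those without had 63.9, 68.6 and 81 CPM. The WT library with epididymis genes, W5F5299, had the lowest Msln of its group at 29.3 CPM. Leaving either set of libraries out gave no call among the 6 genes for KO against WT at 5 months.

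**Figure D3:**
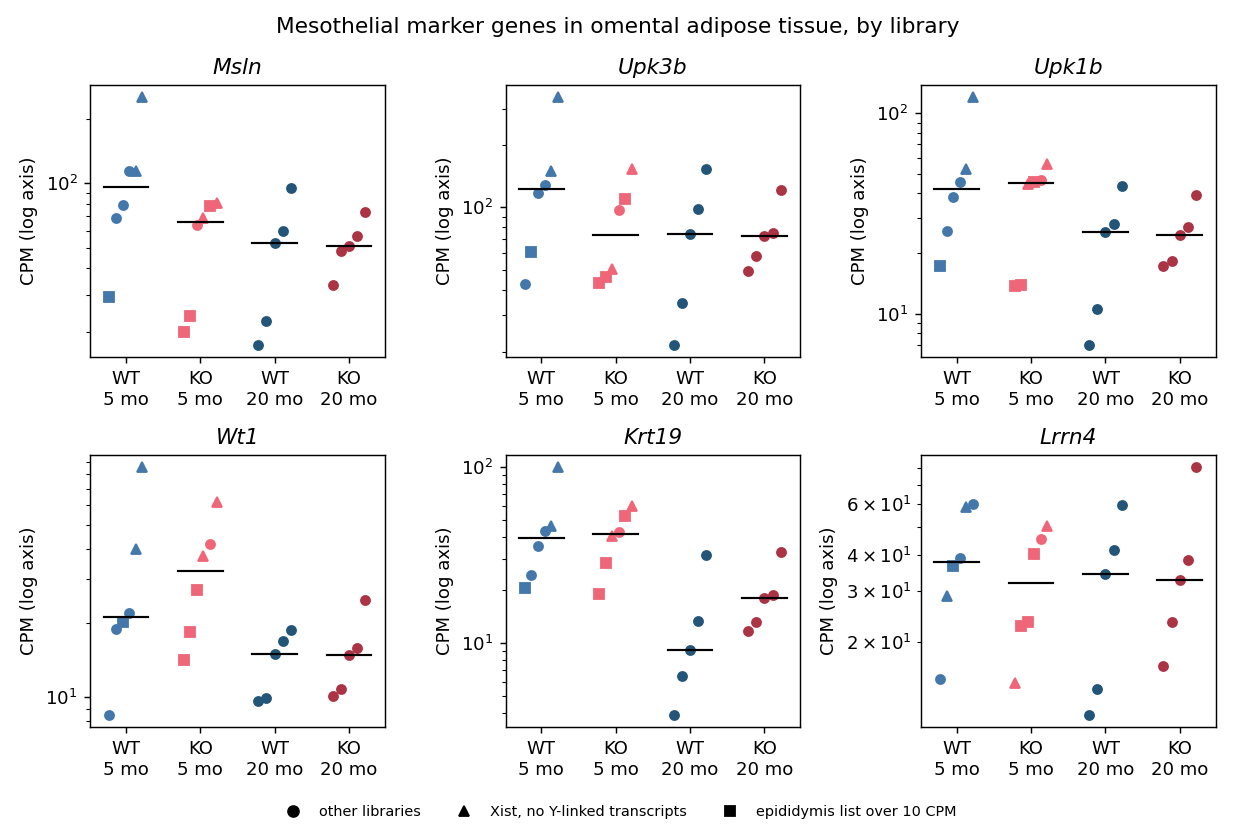
CPM on a log axis of the 6 genes in every adipose library of WT and KO mice at 5 and 20 months (mo), with the median of each group as a bar. Triangles are libraries with Xist and no Y-linked transcripts, squares those over 10 CPM of the epididymis list; the groups overlap in each panel, and 4 of 5 old WT libraries lie under every young WT library for Krt19.

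At 20 months none of the 6 genes was called between KO and WT fat either, with 0% of all genes called by limma (321 genes at an unadjusted p under 0.05), 0 by edgeR and 10 by DESeq2. All 6 differences were positive, with a median of 0.30 against 0.01 over all genes, and none had an unadjusted p under 0.05. The median rested on single libraries: it was 0.00 without W18F25, 0.08 without W18F23, 0.10 without K18F28 and 0.58 without W18F21. It was 0.13 with edgeR and 0.12 with DESeq2. Msln was at 17.4, 22.6, 52.5, 59.8 and 94.9 CPM in WT and at 33.4, 47.9, 50.9, 56.8 and 73.2 CPM in KO libraries. All KO libraries of Msln fell inside the WT range. Its log2 difference of 0.29 had a 95% interval of -0.76 to 1.35.

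Upk3b and Upk1b had the same layout in old fat, with the KO libraries inside the WT range. Upk3b was at 21.6, 34.5, 74, 98 and 153 CPM in WT and at 49.2, 58.2, 73, 75 and 122 CPM in KO libraries (log2 difference 0.23, interval -0.85 to 1.31; -0.01 with edgeR and -0.03 with DESeq2). Upk1b was at 7, 10.6, 25.6, 27.9 and 43.5 CPM in WT and at 17.3, 18.4, 24.7, 27.3 and 39.1 CPM in KO libraries (0.34, interval -0.71 to 1.39). Lrrn4 was at 11.2, 13.8, 34.5, 41.5 and 59.4 CPM in WT and at 16.6, 23.5, 32.8, 38.4 and 80.4 CPM in KO libraries (0.30, interval -0.68 to 1.28). For Lrrn4 the highest library of all 22, K18F28, stood above the whole WT range.

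Wt1 and Krt19 stood at the ends of the range of differences in old fat. Wt1 was at 9.62, 9.95, 15, 16.9 and 18.7 CPM in WT and at 10.1, 10.8, 14.8, 15.9 and 24.8 CPM in KO libraries, a log2 difference of 0.09 (interval -0.83 to 1.02). Krt19 was at 3.9, 6.48, 9.07, 13.3 and 31.6 CPM in WT and at 11.7, 13.1, 18, 18.7 and 33 CPM in KO libraries. For Krt19 3 of 5 WT libraries lay under every KO library, and the groups overlapped through W18F24 and W18F21. The difference of 0.74 (interval -0.18 to 1.67) had an unadjusted p of 0.11 and an adjusted p of 1.

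Age in WT mice gave the 1 call among the 6 genes, a fall of Krt19. Of all genes, 10.8% were called with age in WT fat and 3.36% were called lower (1059 higher and 480 lower; 886 and 820 with edgeR). Krt19 went from 20.5, 39.3 and 99.5 CPM (lowest, median, highest; mean 44.9 ± 28.6, SD, n = 6) at 5 months to 3.9, 6.48, 9.07, 13.3 and 31.6 CPM (mean 12.9 ± 11, n = 5) at 20 months. Of the old libraries 4 of 5 lay under every young one, and W18F21 at 31.6 CPM overlapped the young group. Krt19 fell by 1.85 on the log2(CPM + 1) scale (SE 0.427, 95% interval -2.73 to -0.96, adjusted p = 0.0101). Without the 2 WT and 2 KO libraries that carried Xist the difference was -1.46 with an adjusted p of 0.0661, so the call was lost. Over all alternatives run the difference ranged from -2.23 to -1.46 and the adjusted p from 0.00176 to 0.0661.

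The other 5 genes also had negative differences with age in WT mice, none of them called. Their values by library are those given for each group above. Msln differed by -1.11 (SE 0.487, adjusted p = 0.132), Upk1b by -1.09 (SE 0.483, adjusted p = 0.135) and Upk3b by -0.87 (SE 0.498, adjusted p = 0.238). For Msln, Upk3b, Upk1b and Lrrn4, the old libraries W18F23 and W18F25 lay under the whole young group. Wt1, the transcription factor, differed by -0.85 (SE 0.425, adjusted p = 0.181), with old libraries between 9.62 and 18.7 CPM and 5 of 6 young ones above all of them. Lrrn4 differed by -0.42 (SE 0.452, adjusted p = 0.552). The median over the 6 genes was -0.98, against 0.01 over all genes tested. That median was -0.50 without the Xist libraries, -0.63 with a sex covariate and -1.19 without the epididymis libraries. Without the library W5F5299, which carried epididymis genes and the lowest young Msln, Msln was called at -1.42 (adjusted p = 0.0402).

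In KO mice none of the 6 genes was called with age, where 14.2% of all genes were called and 3.75% were called lower. By unadjusted p, 2 of the 6 were under 0.05, Krt19 and Wt1. Krt19 was at 19, 41.5 and 60 CPM in young KO libraries and at 11.7 to 33 CPM in old ones, with 4 of 5 old libraries under every young one. Its log2 difference was -1.06 (SE 0.427, interval -1.95 to -0.17, adjusted p = 0.0933). Wt1 was at 14.1, 32.3 and 61.7 CPM in young and 10.1 to 24.8 CPM in old KO libraries (-0.99, interval -1.87 to -0.10, adjusted p = 0.114). Wt1 was called without the epididymis libraries (-1.59, adjusted p = 0.0349), without K5F5218 alone (-1.19, adjusted p = 0.0496) and with DESeq2 (-1.20, adjusted p = 0.0352), and Krt19 was called with DESeq2 (-1.18, adjusted p = 0.0432).

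The surface genes were not called with age in KO mice. Msln differed by 0.06 (interval -0.95 to 1.07), Upk3b by -0.04 (interval -1.08 to 0.99), Lrrn4 by 0.14 (interval -0.80 to 1.08) and Upk1b by -0.38 (interval -1.38 to 0.62). Without the libraries carrying epididymis genes, Upk1b differed by -0.98, Msln by -0.47 and Upk3b by -0.33, and the median over the 6 genes went from -0.21 to -0.72. Without the Xist libraries that median was 0.00 and with a sex covariate it was 0.08. The signs for Msln, Upk3b, Lrrn4 and Upk1b turned under at least 1 alternative. The direct test of whether the KO effect differed between the ages called none of the 6 genes and 0% of all genes (407 genes at an unadjusted p under 0.05; edgeR called 0 and DESeq2 6). For Msln that difference was 1.17 (interval -0.26 to 2.6) and for Krt19 it was 0.79 (interval -0.47 to 2.04), both with an adjusted p of 0.998. The fall of Krt19 in WT mice is therefore not shown to differ from the change in KO mice. The WT and KO comparisons at each age share libraries with the age comparisons, and each value stands on its own.

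**Figure D4:**
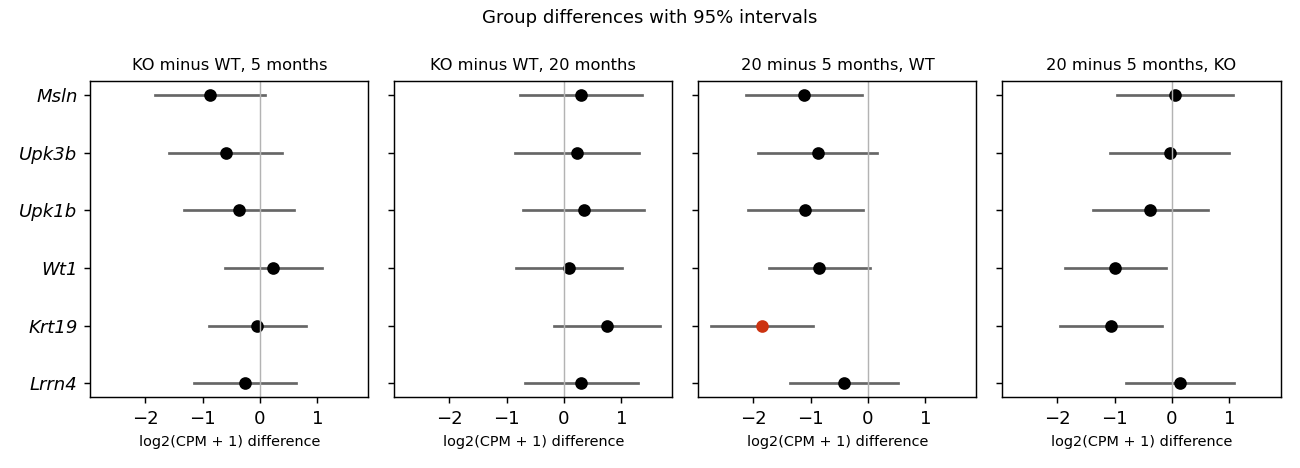
Difference in mean log2(CPM + 1) for the 6 genes (vertical axis) in 4 comparisons of adipose tissue, as points with 95% intervals from limma. The 1 value with an adjusted p under 0.05, drawn in red, is Krt19 with age in WT mice (-1.85); 6 of 6 points are negative in that panel.

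In old WT fat Krt19 was low in proportion to 4 of the other 5 genes without overlap with young WT fat, and Wt1 was the exception. The ratio of Krt19 to Upk3b CPM was 0.292, 0.322 and 0.566 (lowest, median, highest) in young WT libraries and 0.122, 0.18 and 0.206 in old ones, so the groups did not overlap. In KO mice the ratio was 0.264, 0.459 and 1.19 in young libraries and 0.174, 0.247 and 0.321 in old ones, with overlap through K5F5116. Relative to Msln, Krt19 was at 0.351, 0.399 and 0.7 in young WT and at 0.173, 0.223 and 0.332 in old WT libraries, again without overlap. The ratio to Upk1b was 0.827 to 1.19 in young and 0.354 to 0.726 in old WT libraries, and the ratio to Lrrn4 was 0.559 to 1.69 and 0.263 to 0.531. The ratio to Wt1 was 1.01 to 2.85 in young and 0.392 to 1.69 in old WT libraries, with overlap through W18F21. In KO mice the ratio of Krt19 to Msln was 0.498 to 1.41 in young and 0.23 to 0.45 in old libraries, without overlap. The KO ratio to Upk1b overlapped, at 0.906 to 2.07 in young and 0.53 to 0.983 in old libraries. Those to Lrrn4 (0.803 to 4.15 and 0.399 to 1.13) and Wt1 (0.655 to 2 and 0.823 to 1.84) overlapped as well. By contrast the ratio of Lrrn4 to Upk3b CPM had medians of 0.34, 0.419, 0.423 and 0.478 in young WT, young KO, old WT and old KO fat. Ratios were not tested. The Krt19 ratios all share that gene and are not independent. They come from the same libraries that gave its fall with age, so they are no separate support for that fall. How often ratios of other genes separate the groups was not counted.

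**Figure D5:**
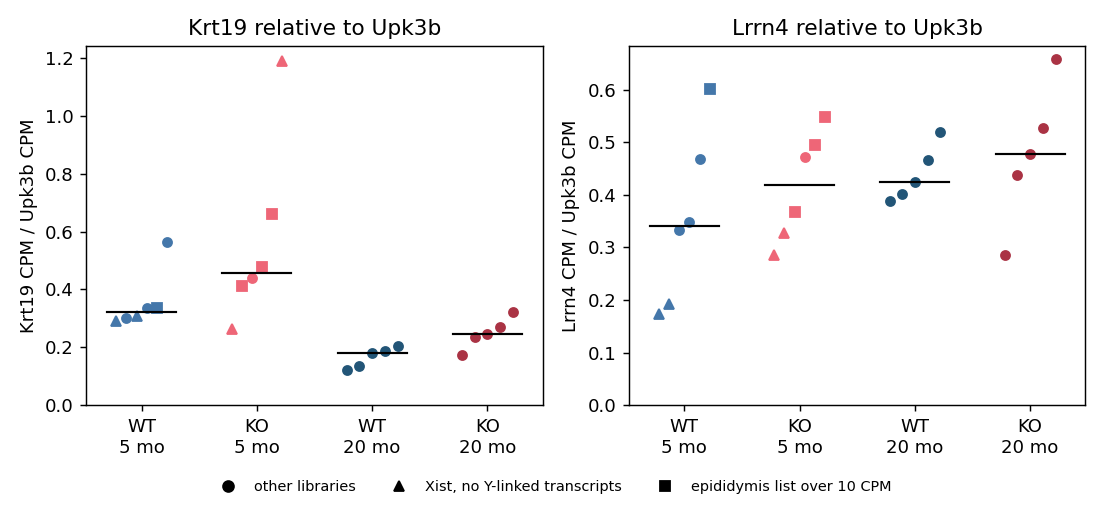
Ratio of Krt19 CPM to Upk3b CPM (left) and of Lrrn4 CPM to Upk3b CPM (right) in every adipose library by group, with medians as bars; triangles carry Xist and no Y-linked transcripts, squares over 10 CPM of the epididymis list. For Krt19 the old WT libraries (0.122 to 0.206) lie under all young WT libraries (0.292 to 0.566), while the Lrrn4 groups overlap.

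The simple epithelial keratins form filaments as pairs of unlike types, and Krt7, Krt8 and Krt18 were read beside Krt19. Of the 4 genes, all tested, Krt7 and Krt19 fell with age in WT mice and Krt8 and Krt18 fell with age in KO mice. The medians of the list were -1.59 and -1.49, against 0.01 and 0.06 over all genes. Krt7 went from 7.93, 18.6 and 57 CPM (lowest, median, highest) to 2.69, 9.35 and 16.9 CPM in WT fat (log2 difference -1.34, SE 0.414, adjusted p = 0.0414). Krt18 went from 7.59, 32.4 and 168 CPM to 3.9, 4.52 and 13.1 CPM in KO fat (-2.34, SE 0.658, adjusted p = 0.0245), and Krt8 differed by -1.93 (adjusted p = 0.0258). The summed keratins were highest in K5F4284 at 358 CPM, the library with the most epididymis transcripts. They were at 270 CPM in K5F5248 and 167 CPM in K5F5218, which also carried epididymis genes. In the 3 young KO libraries without these genes they were at 72.6, 91.2 and 102 CPM, and in old KO fat at 29.2 to 79.3 CPM. The part of the epididymis libraries in the Krt8 and Krt18 calls was not tested. Epcam, Cldn7 and Elf3, 3 of 7 tested in a list of other epithelium, also fell with age in KO mice (list median -2.43). The list, summed, was at 163, 367 and 378 CPM in the 3 young KO libraries with epididymis genes, at 3.55, 3.63 and 8.94 CPM in the 3 without, and at 2.73 to 6.17 CPM in old KO fat. In WT mice it reached 67.5 CPM in W5F5299 and 6.21 CPM in old fat. With all libraries over the epididymis limit left out, Krt19 differed by -2.03 with age in WT mice (adjusted p = 0.00432), as large as with them.

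Other members of the families of Msln and the uroplakins were scarce. Of 6 uroplakin genes 3 were tested and none was called in a comparison of genotype or age. Upk3a and Upk2, which are bladder genes, had no read in any old adipose library and reached 2.7 and 1.15 CPM in young WT fat, where 5 of 6 libraries had none. Upk1a reached 17.1 CPM in young KO fat and 0.489 CPM in old WT fat. Of the mesothelin family only Msln and the list's added ligand Muc16 passed the filter, and neither was called. Mslnl stayed at 0.163 CPM or less, and Otoa at 0.637 CPM or less in adipose tissue. Of 6 bladder urothelium genes 2 were tested and none was called.

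Developmental regulators listed beside Wt1 were mostly not called. Of 11 genes tested (median -0.53 with age in WT and -0.43 in KO mice), Nr2f2, a nuclear receptor, fell with age in KO mice, from a median of 28.5 to 18.5 CPM (log2 difference -0.72, SE 0.222, adjusted p = 0.0368), and the other 10 were not called in any of the 4 comparisons. Gata6, the factor with a role in mesothelial and peritoneal macrophage programmes, had medians of 28.6, 32.5, 19.5 and 20.3 CPM in young WT, young KO, old WT and old KO fat. Its differences with age were -0.53 in WT and -0.51 in KO mice (adjusted p = 0.201 and 0.208). The gonads also make Wt1, and a testis and ovary list had 5 of 12 genes tested, of which Inha, an inhibin subunit, fell with age in KO mice (-0.98, adjusted p = 0.0245). That list summed to 7.63 to 19.3 CPM in WT and 6.19 to 109 CPM in KO fat, with the top in K5F5248. Its part in the values of Wt1 was not tested. K5F5248 had 18.4 CPM of Wt1, the second lowest of its group, and it ranked 5 or 6 of 6 for the other 5 genes as well.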

How the data were processed

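Poly(A)-selected RNA was sequenced from 64 mouse libraries. Per the file headers, the authors made 1 deposited table with the CLC software, called CPM, which is a read signal scaled per library. Column sums were 0.529 to 1.64 M. The submitters' processing notes name GRCm38.p6, and the counting settings are not given in the sources used here. Each value was a whole multiple of 1 read (100% of values, tolerance 0.02 reads). Symbols came from RefSeq (35336 of 36332 IDs). No pair of adipose libraries of a group agreed within sampling noise (lowest chi-square per degree of freedom 20.2).

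A gene was kept if the number of libraries over 1 CPM reached the size of the smallest group. Kept genes entered limma 3.58.1 (under R 4.3.3) on the log2 scale after adding 1 CPM, in 1 fit of all 4 adipose groups, with Benjamini-Hochberg adjustment over all genes and a threshold of 0.05. Fold changes on that scale understate the change of low genes. Tissues were compared among WT libraries at 5 months. Alternatives were a pseudocount of 0.1, no filter, rescaling to library totals, edgeR 4.0.16 and DESeq2 1.42.0 on the recovered reads, a sex covariate, fits of only the compared groups, the code number as a replicate block for tissues, and leaving out libraries. The fits were tested on simulated data.

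The 6 genes and all lists were chosen with earlier results of these data known. Genes named are the 6, the 10 most like them, Myc, and per list and comparison up to 4 called genes by size of change, or else the most abundant pair. Genes singled out beyond that (Nkain4, Rspo1, Pdpn, Bcam, Lrrn4cl, Tbx18, Tcf21, Calb2, Upk3a, Upk2, Mslnl, Otoa, Gata6) were chosen after their values were seen. Some genes of the lists are not reported here.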

Additional observations from a re-analysis of the deposited data

Results flagged for a closer look

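Library W5F5042, of a WT mouse at 5 months, stood far from the other 5 adipose libraries of its group for 3 of the 6 genes. Its Upk3b level was 341 CPM, against 42.8 to 150 CPM in the others. Its Upk1b level was 120 CPM, against 17.3 to 52.8 CPM. Its Krt19 level was 99.5 CPM, against 20.5 to 46.5 CPM. In all, 24 sets of a gene and a group were looked at, by the gap to the nearest library over the range of the group. The gaps were 0.641, 0.655 and 0.672 of the range, on CPM without logs. Chance flags about 1 in 20 groups if values are normally distributed, and whether these CPM values are was not tested. The 3 values come from 1 library and are not independent. The library also had the highest Msln (254 CPM) and Wt1 (85.2 CPM) of its group. It had a total of 17.6 M reads and Xist at 287 CPM without Y-linked transcripts. Its bladder urothelium list summed to 10.5 CPM, the highest of the young WT group, whose median was 1.5 CPM. W5F5299 followed at 7.78 CPM. Whether bladder tissue added to the flagged levels was not tested.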

How the results depend on the processing

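The counts of called genes among the 6 stayed at 0 for KO against WT at both ages and for the difference between the ages, and at 6 against liver and against muscle, under every alternative run. With age in WT mice the count was 1, and it was 2 with DESeq2, 0 without the libraries carrying Xist, 3 without those carrying epididymis genes, and 1 to 2 when single libraries were left out (2 without W5F5299). With age in KO mice it was 0, and it was 2 with DESeq2, 1 without the epididymis libraries, and 0 to 1 when single libraries were left out (1 without K5F5218). Among WT tissues at 5 months, same-numbered libraries correlated with r from -0.0744 to 0.315 over 14 pairs (median 0.171, against -0.0476 for other pairs), 11 of them over 0.1. The numbers with Xist and no Y-linked transcripts were the same in all 3 tissues. The labels do not say that a number is 1 mouse and not every pair was over 0.1, so the code numbers were not used as pairs in the main comparison. With the code number as a replicate block the count was 6 for both tissues, and 9675 genes were called against liver and 9348 against muscle in all.

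Signs turned only in differences that were not called. For KO against WT at 5 months, Krt19 was 0.036 when rescaled, 0.162 without the Xist libraries, 0.078 without the epididymis libraries and -0.224 to 0.22 without single libraries, and Wt1 was -0.059 to 0.578 without single libraries. At 20 months Upk3b was -0.0099 with edgeR and -0.0255 with DESeq2. Without single libraries the 20-month values were -0.131 to 0.561 for Upk3b, -0.0058 to 0.589 for Msln, -0.0897 to 0.213 for Wt1 and -0.0126 to 0.581 for Lrrn4. With age in KO mice Msln was -0.146 with edgeR, -0.167 with DESeq2, -0.469 without the epididymis libraries and -0.19 to 0.206 without single libraries. Upk3b was 0.269 with a sex covariate, 0.081 without the Xist libraries and -0.232 to 0.165 without single libraries, Upk1b was 0.0104 with a sex covariate, and Lrrn4 was -0.173 to 0.38 without single libraries. The Wt1 difference between the ages was 0.0404 with edgeR, 0.026 with DESeq2 and -0.484 to 0.153 without single libraries. The cause of these turns was not tested.

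Over all genes the calls for KO against WT at 5 months went from 15 to 304 with DESeq2, 534 without the Xist libraries, 34 with a sex covariate, 9 with edgeR, 7 with no filter and 2 with only the compared groups, and at 20 months from 0 to 10 with DESeq2. With age in WT mice they went from 1539 to 2696 with DESeq2, 709 without the Xist libraries, 3497 without the epididymis libraries, 869 with a sex covariate and 2650 with only the compared groups. With age in KO mice they went from 2033 to 3297 with DESeq2, 3277 without the Xist libraries and 840 with only the compared groups, and to as few as 653 without single libraries. Groups held 5 or 6 libraries, with spans of up to 10.1-fold within a group. Libraries with epididymis genes or with Xist and no Y-linked transcripts were all young. With a sex covariate 1 of the 6 genes was called with age in WT mice.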

Other observations

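Genes tied to what the mesothelium covers and turns into were read from lists of the same kind. B cell genes, of cells that gather in milky spots among other places, rose with age: in a list of B cell and lymphoid stroma genes, Ms4a1, Cd79a and Cd79b rose in WT mice and Ms4a1 and Cd79a in KO mice. Ms4a1, the gene of the CD20 antigen, went from 0.352, 1.08 and 1.96 CPM (lowest, median, highest) to 6.08, 8.29 and 36.7 CPM in WT fat (log2 difference 2.59, SE 0.382, adjusted p = 0.000307, limma). In KO fat it went from 0, 0.248 and 0.86 CPM to 1.5, 2.17 and 7.46 CPM (1.77, SE 0.382, adjusted p = 0.00609). Whether the rise differed between genotypes was not called (adjusted p = 0.998).

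In a list of genes of the mesothelial-to-mesenchymal transition, Zeb2 and Vim rose with age in KO mice. Zeb2, a repressor of epithelial genes, rose by 1.15 in KO mice (adjusted p = 0.0314) and Vim, the gene of vimentin, by 1.04 (adjusted p = 0.0231). Many cells of adipose tissue make these transcripts.

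Among adipocyte genes, Retn, the resistin gene, fell with age in WT (-2.43, adjusted p = 0.01) and KO mice (-2.30, adjusted p = 0.0123), and Lep, the leptin gene, rose in KO mice (2.98, adjusted p = 0.0412). Of 8 macrophage genes Adgre1 rose with age in KO mice (1.19, adjusted p = 0.026). Of the lists of uterus and oviduct and of pancreas, Msx1 (0.45, adjusted p = 0.0454) and Cela1 (1.23, adjusted p = 0.029) rose with age in KO mice. None of 8 fibroblast genes and not the 1 tested gene of the list of stratified keratins was called in a comparison of genotype or age. The epididymis list had no gene tested.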
